A study of Homo sapiens with 24 samples.

Results

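CDK6, CDK4, their D-type cyclins CCND1 and CCND3, the retinoblastoma family RB1, RBL1 and RBL2, the inhibitors CDKN1B and CDKN2C and the transcription factor E2F1 form the circuit that lets a cell leave G1, and their transcripts were followed in MDA-MB-231 cells given microRNA mimics or inhibitors. The members are all array probes annotated with any of these 10 gene symbols that passed a detection p of 0.05 on the 2 arrays of some group. Of 47309 probes on the array, 11 carry a member's symbol and 10 were kept, for 9 genes of the 12529 with a detected probe. CDKN2C was not analysed here because no annotated probe carries its symbol. The 1 annotated probe left out is for RBL1 (ILMN_1753013), whose detection p ran from 0.194 to 0.887 over the 24 arrays. The 10 kept probes were detected on every array, the dimmest being E2F1 (highest detection p 0.0117) and CDKN1B ILMN_2196347 (highest 0.0013).

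MDA-MB-231 is an established human breast cancer cell line. Every culture was transfected at 50 nM and harvested after 48 hours, and RNA was measured on Illumina HT12v4 bead arrays. The 24 arrays form 12 groups of 2: a non-targeting (NT) mimic, which carries a fluorescent dye and is the negative control, 6 mimics (miR-544a, miR-127-5p, miR-369-3p, miR-135a, miR-655-3p and miR-410), and inhibitors of all of these except miR-127-5p. A mimic is a synthetic duplex that supplies the mature microRNA, and an inhibitor is an oligonucleotide that pairs with it. Untransfected cells and an NT inhibitor are not among these groups. Whether the 2 arrays of 1 group are separate cultures is not in the labels, so the p-values rest on the spread among arrays alone, which may be technical.

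In G1 the D-type cyclins bind CDK4 or CDK6, and the active kinase phosphorylates the pocket proteins RB1, RBL1 and RBL2. Unphosphorylated pocket proteins hold E2F transcription factors in check, so phosphorylation releases the genes of DNA replication, among them MCM helicase subunits and enzymes of nucleotide synthesis. CDKN1B binds cyclin-CDK complexes and CDKN2C binds CDK4 and CDK6 alone, and a microRNA lowers a transcript mainly by pairing of its seed, bases 2 to 8, with the 3' untranslated region.

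The mature sequences of the 4 transfected microRNAs whose arm the labels name are shown because the comparison of mimics below turns on them. They are RefSeq sequences (GRCh38.p14, all on the plus strand of chromosome 14), written 5' to 3' with the seed in capitals.
miR-127-5p (chr14:100883001-100883022): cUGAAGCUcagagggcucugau
miR-369-3p (chr14:101065641-101065661): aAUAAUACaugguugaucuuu
miR-544a (chr14:101048712-101048733): aUUCUGCAuuuuuagcaaguuc
miR-655-3p (chr14:101049610-101049631): aUAAUACAugguuaaccucuuu
The 4 seeds are different, but miR-369-3p and miR-655-3p share a run of 13 bases, auaauacaugguu, which starts at base 2 of miR-369-3p and at base 1 of miR-655-3p. The longest run shared by any other pair of these is 4 bases. The labels do not name the arm of miR-135a or miR-410, and their sequences are not shown.

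Values are normalized signals, 2 to the power of the background-corrected and quantile normalized log2 values. Array medians ran from 101.7 to 123.1, and 19754 to 21286 probes were detected per array. The 2 arrays of a group correlated at 0.980 to 0.997 over the 22803 probes tested, with the lowest value for the miR-544a mimic and the largest median difference between arrays (0.226 on the log2 scale) for the miR-369-3p inhibitor. The line's markers VIM, CD44, AXL and CAV1 were detected on all 24 arrays (median signals 11014, 8027, 8212 and 9860), whereas ESR1, CDH1, PTPRC and CDH5 were detected on 0 arrays. Other luminal, epithelial, blood and endothelial markers were detected. The luminal and epithelial markers KRT19, ERBB2 and GATA3 were detected on all 24 arrays (median signals 3215, 767 and 57.0). So was the blood marker CD68 (608), while PECAM1 was detected on 16 arrays and PGR on 1. A change was called when limma gave an adjusted p under 0.05, over all 22803 probes, and a fold of at least 1.4.

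CDK6 and RBL1 were selected on their signal in these arrays, being known to be lower with the miR-544a mimic than with the NT control when the genes were chosen. All comparisons of the miR-544a mimic are therefore given as descriptions with no p, and so are comparisons of CDK6 and RBL1 with the NT arrays, which served in that contrast too. For these genes, tests are given where neither the NT arrays nor the miR-544a mimic take part. All 11 comparisons with the NT control share its 2 arrays. The other members and the gene lists used below were also chosen with earlier results of these data known. Their p-values are to be read with that limit.

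CDK6 was highest in the NT control, close to it with the miR-127-5p mimic, lower in 9 other groups, and lowest by far with the miR-544a mimic. CDK6 is a kinase that partners D-type cyclins to drive entry into S phase. Its signal was 3299 and 3180 on the NT arrays and 3173 and 2931 with the miR-127-5p mimic. With the miR-544a mimic it was 436 and 507. All 22 other arrays lay below both NT arrays, and no array came near the miR-544a mimic, the next lowest being 1543.

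The remaining mimics held intermediate CDK6 signals of 2186 and 2271 (miR-369-3p), 2165 and 2145 (miR-655-3p), 1814 and 1961 (miR-135a) and 1543 and 1753 (miR-410). The 10 inhibitor arrays spanned 1709 to 2080, with a median of 1822. The mimics of miR-655-3p and miR-369-3p thus lay above every inhibitor array, the miR-135a mimic lay among them, and the miR-410 mimic overlapped their lower end. In the order of group means, the 5 neighbours from the miR-135a mimic (1888 ± 104) down to the miR-410 inhibitor (1761 ± 74.2, SD, n = 2 arrays each) overlapped each other in turn, as did the miR-410 inhibitor and the miR-410 mimic (1648 ± 149). In RNA from a whole culture, less transcript in every cell and fewer cells that carry it cannot be told apart.

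Against the NT control the log2 fold change of CDK6 was -2.78 (SE 0.10) with the miR-544a mimic, a signal 6.89-fold lower. In the 9 groups of intermediate signal it ran from -0.54 with the miR-369-3p mimic to -0.98 with the miR-410 mimic, and both inhibitors and mimics fell in that range: -0.64 with the miR-135a inhibitor and -0.88 with the miR-410 inhibitor. With the miR-127-5p mimic it was -0.09, as a description. Measured in the other direction, the NT control exceeded the mean of the 5 inhibitor groups by 0.79 on the log2 scale. Of the 8 probes other than CDK6 and RBL1, limma called 0 in that comparison, with 4 higher in the NT control at an unadjusted p under 0.05, where 3.6% of all probes were higher and 3.6% lower.

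Set against the mean of the 5 inhibitor groups, CDK6 moved with 1 mimic that could be tested. It rose by 0.71 on the log2 scale with the miR-127-5p mimic (SE 0.08, limma adjusted p 3.3e-06), and both of its arrays lay above all 10 inhibitor arrays. With the miR-135a mimic the difference was 0.01 (95% confidence interval -0.15 to 0.18). The differences with the mimics of miR-369-3p (0.25, limma adjusted p 0.065), miR-655-3p (0.21, adjusted p 0.072) and miR-410 (-0.18, adjusted p 0.16) did not pass. The miR-544a mimic lay at -1.99, as a description. The sign thus differed between the NT and inhibitor references for the mimics of miR-127-5p, miR-135a, miR-655-3p and miR-369-3p.

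Against the inhibitor of the same microRNA, CDK6 was called for none of the 4 mimics tested. It differed by -0.14 for miR-135a, 0.25 for miR-369-3p, -0.10 for miR-410 and 0.26 for miR-655-3p, with limma adjusted p-values from 0.12 to 0.61. For miR-544a the mimic lay 1.97 below its inhibitor on the log2 scale, with signals of 436 and 507 against 1894 and 1785.

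CDK4, the other D-cyclin kinase, varied little. Its signal was 2650 and 2531 on the NT arrays, and group means ran from 2202 ± 30.6 with the miR-127-5p mimic to 2941 ± 190 with the miR-135a inhibitor (SD, n = 2 arrays each), a span of 1.34-fold. CDK4 is held by the same cyclins as CDK6. Neighbouring groups overlapped in their arrays all along that order, except that the miR-127-5p mimic (2181 and 2224) lay below every other array. Against the NT control the log2 fold changes lay between -0.23 and 0.18, and limma and SAM each called it in 0 of 11 comparisons. The 1 comparison with an unadjusted p under 0.05 was the miR-127-5p mimic (limma adjusted p 0.16). Against the mean of the inhibitors CDK4 was -0.31 with that mimic (limma adjusted p 0.011), a difference under the 1.4-fold threshold.

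**Figure D1:**
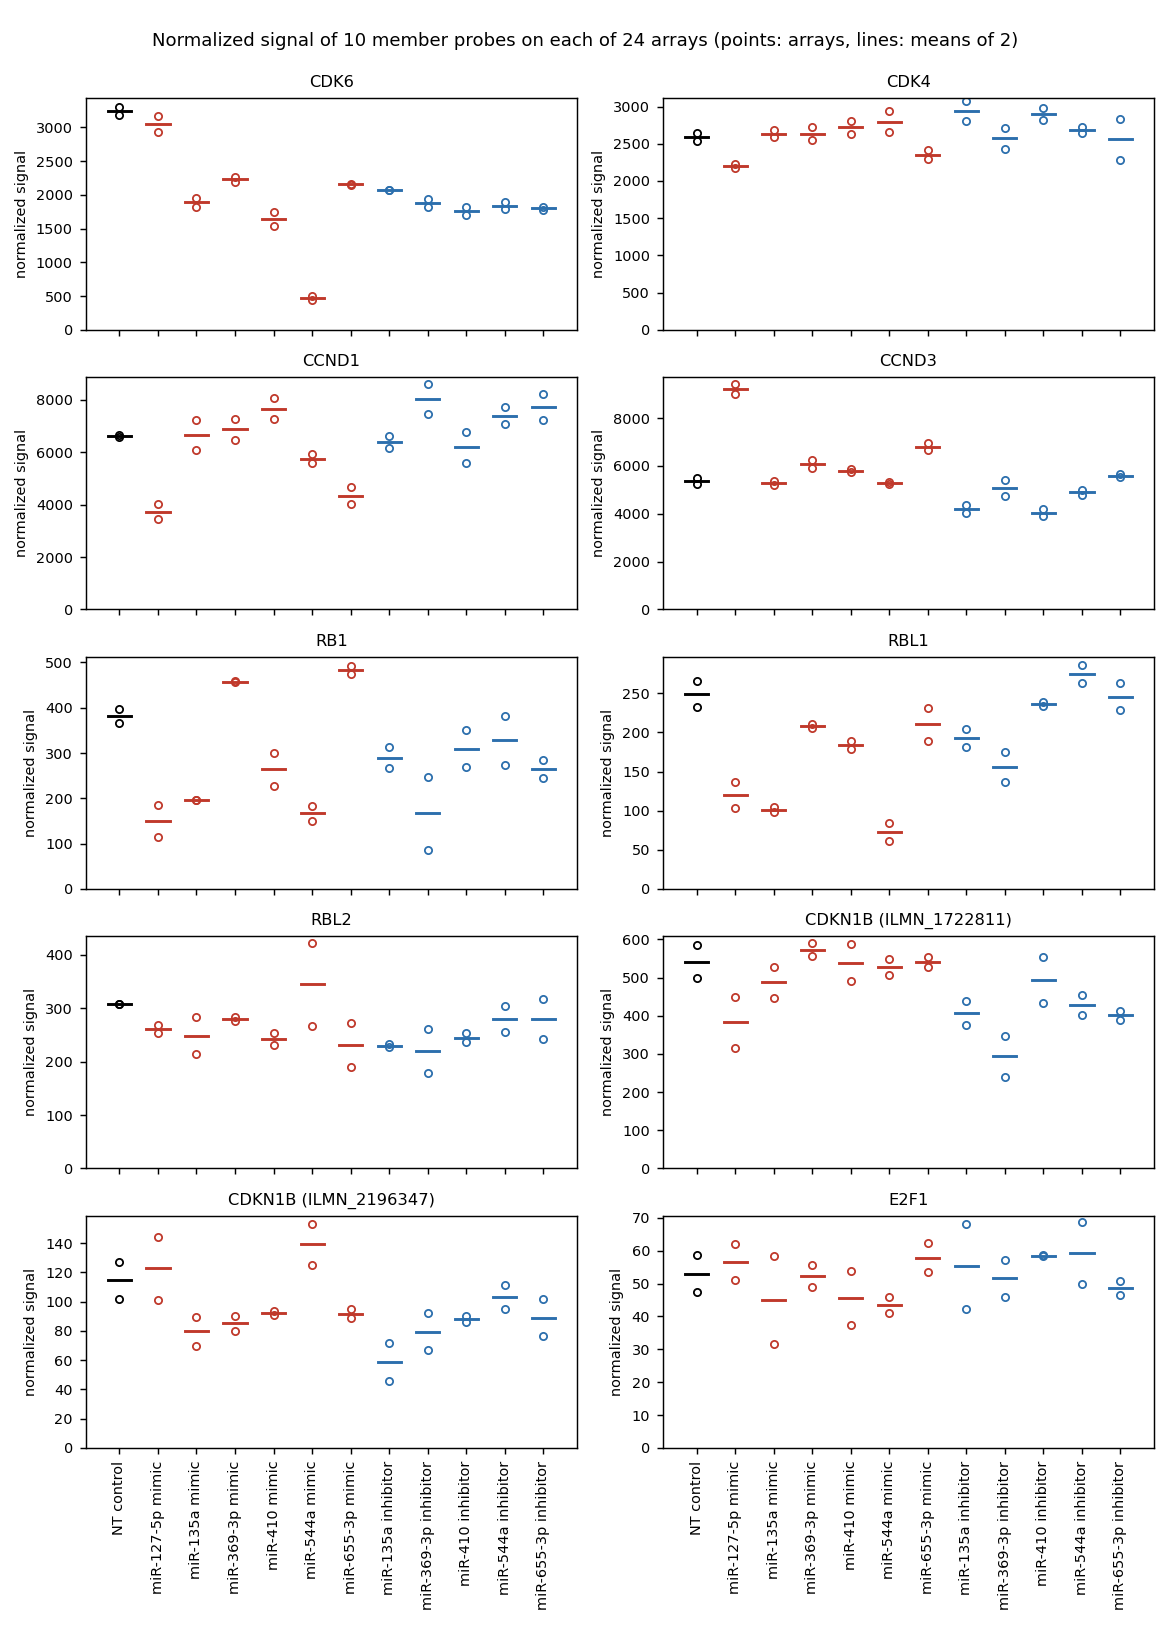
Normalized signal (vertical axis, linear, from 0) of the 10 probes on each of the 24 arrays, with the NT control in black, mimics in red and inhibitors in blue; points are arrays and lines are means of 2. CDK6 is highest in the NT control (3299 and 3180) and lowest with the miR-544a mimic (436 and 507), CCND1 is low and CCND3 high with the miR-127-5p mimic, and E2F1 shows no group apart from the others.

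The D-type cyclins CCND1 and CCND3 moved in opposite directions with the miR-127-5p mimic. CCND1, the cyclin most often amplified in breast cancer, gave 6597 and 6662 on the NT arrays and 3439 and 4030 with this mimic. CCND3 gave 5235 and 5484 on the NT arrays and 8995 and 9442 with it. The miR-127-5p arrays were thus apart from the NT arrays for both cyclins, and for CCND3 they were higher than all 22 other arrays.

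In the fit, CCND1 fell by 0.83 on the log2 scale with the miR-127-5p mimic (SE 0.13, limma adjusted p 0.0003, 1.78-fold lower). CCND3 rose by 0.78 (SE 0.09, limma adjusted p 1.6e-05, 1.72-fold higher). Both calls were also made against the mean of the inhibitors, at -0.93 for CCND1 (limma adjusted p 4.2e-06) and 0.96 for CCND3 (adjusted p 5.3e-08), and neither was lost when any array of the groups compared was left out.

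CCND1 was lower with the miR-655-3p mimic as well. Its arrays read 4663 and 4017, below both NT arrays and below all 10 inhibitor arrays, which spanned 5601 to 8612. CCND1 fell by 0.62 against the NT control in log2 units (limma adjusted p 0.005), but was not called without replicate 2 of this mimic (-0.51, adjusted p 0.073) or with median scaling (-0.62, adjusted p 0.06), the adjusted p running from 0.0018 to 0.073 over the alternatives. Against its own inhibitor it fell by 0.83 (adjusted p 0.00055), and against the mean of the inhibitors by 0.71 (adjusted p 1e-04), and both of these held with any array left out. The miR-127-5p and miR-655-3p mimics overlapped each other in CCND1 signal.

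CCND3 with the miR-655-3p mimic read 6976 and 6654, above both NT arrays. The log2 fold change of 0.35 (limma adjusted p 0.018) stayed under 1.4-fold against the NT control, while the rise of 0.53 against the mean of the inhibitors passed (adjusted p 5.2e-05). At the other end of its range CCND3 read 4191 and 3902 with the miR-410 inhibitor and 4358 and 4050 with the miR-135a inhibitor, below every other group and overlapping each other. These were -0.41 (adjusted p 0.009) and -0.35 (adjusted p 0.017) against the NT control, both under 1.4-fold. CCND3 was higher with the miR-410 mimic (5739 and 5878) than with the miR-410 inhibitor by 0.52 (limma adjusted p 0.0018), a call lost at the fold threshold without replicate 2 of the inhibitor (0.47) and with median scaling (0.32, adjusted p 0.3).

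In the other comparisons with the NT control neither cyclin was called. Beside the low CDK6 of the miR-544a mimic, CCND1 read 5582 and 5925 and CCND3 5230 and 5329 in the same arrays, log2 differences of -0.20 and -0.02. CCND1 was highest with the miR-369-3p inhibitor (7469 and 8612), where the log2 fold change of 0.27 was not called.

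**Figure D2:**
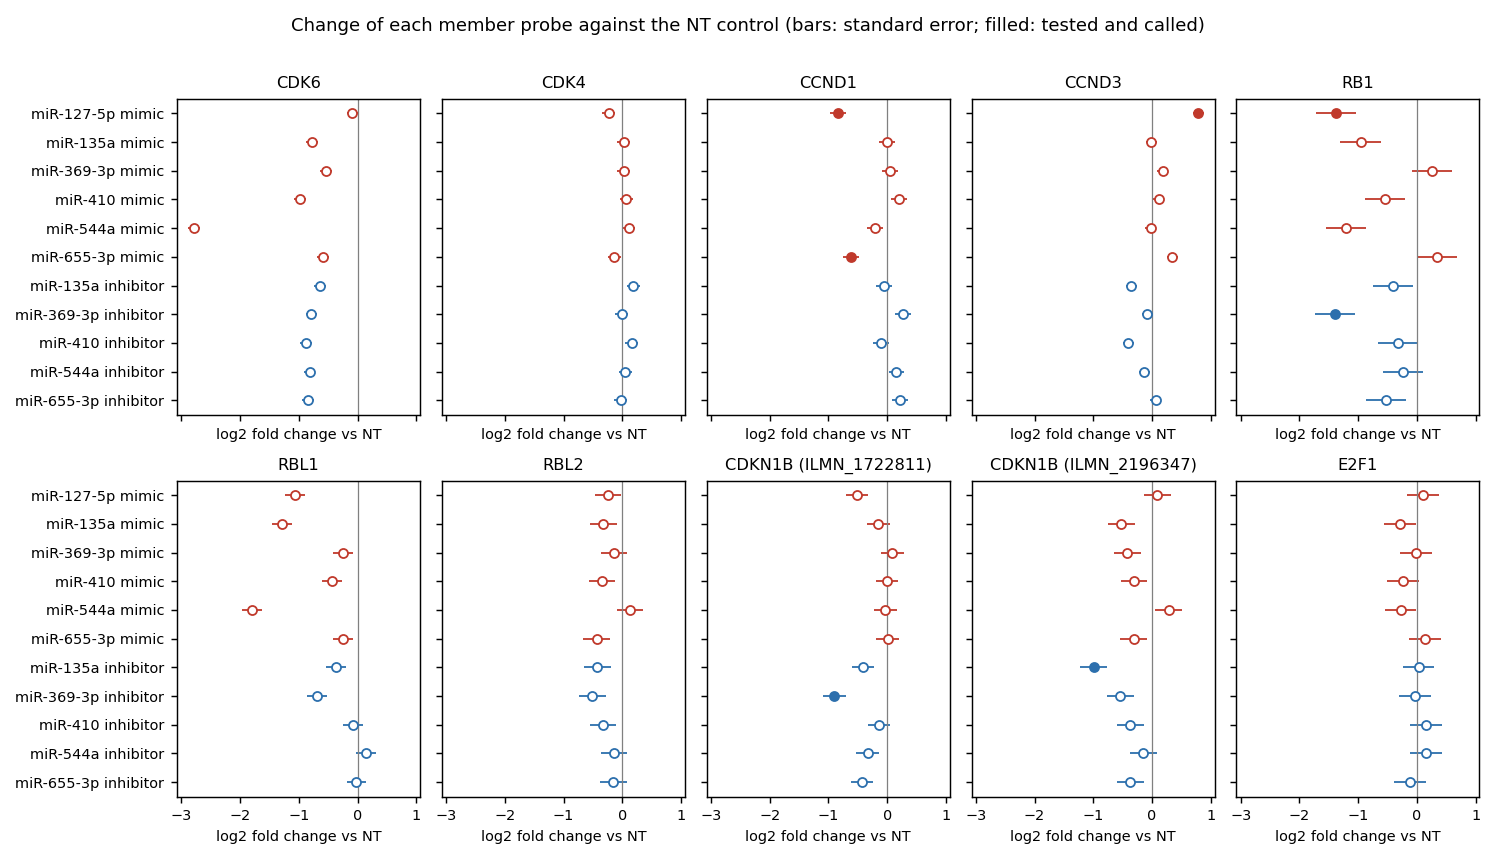
Log2 fold change against the NT control (horizontal axis) of each of the 10 probes for the 11 other groups (rows), with bars for 1 standard error and filled points for values that were tested and called; CDK6, RBL1 and the miR-544a mimic were not tested. CDK6 lies at -2.78 with the miR-544a mimic and between -0.54 and -0.98 in 9 other rows, whereas CDK4, RBL2 and E2F1 have no filled point.

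CDKN1B, which encodes the inhibitor p27, was measured by 2 probes, each called in a different group. ILMN_1722811 read 584 and 497 on the NT arrays and 348 and 240 with the miR-369-3p inhibitor, its lowest group. ILMN_2196347 read 127.2 and 102.1 on the NT arrays and 72 and 45 with the miR-135a inhibitor, its lowest group. Each probe's lowest group lay below both NT arrays.

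By the test, ILMN_1722811 fell by 0.90 with the miR-369-3p inhibitor (SE 0.19, limma adjusted p 0.0048) while ILMN_2196347 was at -0.54 there and not called. ILMN_2196347 fell by 0.99 with the miR-135a inhibitor (SE 0.23, limma adjusted p 0.0074) while ILMN_1722811 was at -0.41 and not called. The call of ILMN_1722811 was lost without replicate 2 of the miR-369-3p inhibitor (-0.63, adjusted p 0.08) or replicate 1 of the NT control (adjusted p 0.065). The call of ILMN_2196347 was lost without replicate 2 of the miR-135a inhibitor (-0.66, adjusted p 0.12) or replicate 1 of the NT control (adjusted p 0.089). On the 4 arrays compared alone ILMN_1722811 was also not called with the miR-369-3p inhibitor (limma adjusted p 0.081). Without background correction ILMN_2196347 was not called with the miR-135a inhibitor (-0.42, under the fold threshold). Both probes were thus below the NT control in both groups, and in neither group were both called.

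The miR-369-3p mimic held the highest CDKN1B ILMN_1722811 signal (556 and 591). Against its own inhibitor it was higher by 0.99 (limma adjusted p 0.0048), which was not called without replicate 2 of that inhibitor (0.72, adjusted p 0.089). Against the mean of the inhibitors it was higher by 0.53 (adjusted p 0.042), a call that 8 of 12 arrays could each remove when left out. ILMN_2196347 was higher with the miR-127-5p mimic than the mean of the inhibitors by 0.57 (limma adjusted p 0.022). Without replicate 2 of that mimic the value was 0.31, under the fold threshold. The 2 probes did not move together: with the miR-127-5p mimic ILMN_1722811 was at -0.07 against the mean of the inhibitors. Against the NT control it was at -0.52, called by SAM and not by limma. On ILMN_2196347 the miR-369-3p mimic (90 and 80) ranked 9 of 12 groups.

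The pocket proteins behaved differently from each other. RBL1 had the widest range of the 3, from 72.8 ± 17.1 with the miR-544a mimic to 274 ± 16 with the miR-544a inhibitor (SD, n = 2 arrays each). RB1 ranged from 150 ± 50.4 with the miR-127-5p mimic to 484 ± 12.1 with the miR-655-3p mimic. RBL2 stayed within 1.57-fold.

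RBL1 encodes p107, a pocket protein that binds repressor E2Fs and is itself an E2F target. Its signal was 266 and 232 on the NT arrays, 136 and 104 with the miR-127-5p mimic and 105 and 98 with the miR-135a mimic. It was 61 and 85 with the miR-544a mimic. All 6 mimic arrays lay well below the NT arrays and the 3 mimics were the lowest groups, although the miR-369-3p inhibitor (175 and 137) came close to the upper array of the miR-127-5p mimic. The miR-127-5p and miR-135a mimics overlapped at their ends.

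Against the NT control the log2 fold change of RBL1 was -1.79 with the miR-544a mimic, -1.29 with the miR-135a mimic, -1.06 with the miR-127-5p mimic and -0.68 with the miR-369-3p inhibitor. Without replicate 2 of that inhibitor the last value was -0.51, and without background correction -0.44. Tests without the NT arrays were possible for both other mimics. RBL1 fell by 1.09 with the miR-135a mimic against the mean of the inhibitors (SE 0.13, limma adjusted p 1.3e-05) and by 0.93 against the miR-135a inhibitor (204 and 182, adjusted p 0.00097). It fell by 0.86 with the miR-127-5p mimic against the mean of the inhibitors (SE 0.13, adjusted p 9.4e-05). None of these 3 calls was lost when any array compared was left out. For the miR-544a mimic the same differences were -1.59 against the mean of the inhibitors and -1.93 against its own inhibitor.

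RB1, the tumour suppressor that restrains E2F1, was the most variable probe between the arrays of a group (pooled SD 0.38 on the log2 scale). Its signal was 397 and 367 on the NT arrays, 186 and 115 with the miR-127-5p mimic and 247 and 86 with the miR-369-3p inhibitor. It was 150 and 183 with the miR-544a mimic and 196 and 196 with the miR-135a mimic. All of these lay below the NT arrays, as did 17 of the 22 other arrays in all, among them those of the miR-410 mimic (301 and 228). The mimics of miR-655-3p (475 and 492) and miR-369-3p (457 and 459) instead lay above the NT arrays and above every inhibitor array.

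RB1 fell by 1.38 on the log2 scale with the miR-127-5p mimic (SE 0.34, limma adjusted p 0.008) and by 1.39 with the miR-369-3p inhibitor (SE 0.34, adjusted p 0.012). The first call was lost without replicate 2 of the mimic (-1.04, adjusted p 0.11) or replicate 1 of the NT control (adjusted p 0.059), and the range over the alternatives was 0.0039 to 0.11. The call with the inhibitor was lost without its replicate 2 (-0.63, adjusted p 0.18) or either NT array (adjusted p 0.087 and 0.055), over a range of 0.00013 to 0.18. With the miR-135a mimic RB1 was at -0.96 and not called by limma on all 24 arrays, though it was called by SAM, on the 4 arrays alone, with an offset of 50, without background correction and with median scaling. The miR-544a mimic lay at -1.20.

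Against the mean of the inhibitors, RB1 fell by 0.81 with the miR-127-5p mimic (limma adjusted p 0.028) and rose by 0.92 with the miR-655-3p mimic (adjusted p 0.02). Without replicate 2 of the miR-127-5p mimic the first was -0.46 (adjusted p 0.43; with median scaling 0.074), and without either array of the miR-655-3p mimic the second was not called (adjusted p 0.12 and 0.16). The miR-369-3p mimic exceeded its own inhibitor by 1.65 (adjusted p 0.007), which was 0.89 (adjusted p 0.1) without replicate 2 of that inhibitor and was also lost without either array of the mimic (adjusted p 0.059 and 0.055).

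RBL2 encodes p130, the pocket protein that dominates in resting cells. It read 309 and 308 on the NT arrays, and its log2 fold changes ran from -0.51 with the miR-369-3p inhibitor to 0.13 with the miR-544a mimic. The 2 arrays of the miR-544a mimic, at 267 and 423, lay on either side of the NT control. Limma and SAM each called RBL2 in 0 of 11 comparisons with the NT control, the lowest limma adjusted p outside the miR-544a mimic being 0.14, with 1 unadjusted p under 0.05.

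E2F1, the activator released by phosphorylated RB1, was the dimmest member. Its arrays ran from 31.7 to 68.8, and its group means from 43.5 ± 3.60 with the miR-544a mimic to 59.4 ± 13.3 with the miR-544a inhibitor (SD, n = 2 arrays each). Neighbouring groups overlapped throughout that order. The log2 fold changes lay between -0.29 and 0.16, with 0 of 11 called by limma or SAM and 0 at an unadjusted p under 0.05. The 95% confidence intervals outside the miR-544a mimic reached from -0.86 to 0.73, which leaves room for a change of 1.4-fold.

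Counted against the NT control over the 8 probes other than CDK6 and RBL1, the miR-127-5p mimic had 2 lower (CCND1 and RB1) and 1 higher (CCND3), where 8.02% of all probes were lower and 7.75% higher. The miR-369-3p inhibitor had 2 lower (RB1 and CDKN1B ILMN_1722811), beside 5.87% of all probes lower and 6.42% higher, and this count was 0 on the 4 arrays alone, 0 without replicate 2 of the inhibitor, 0 without replicate 1 of the NT control, 1 without replicate 2 of the NT control and 3 without replicate 1 of the inhibitor. The miR-655-3p mimic had 1 lower (CCND1), beside 5.9% and 5.51%, and the miR-135a inhibitor 1 lower (CDKN1B ILMN_2196347), beside 5.97% and 5.67%. The miR-135a mimic had 0 by limma, with 2 lower at an unadjusted p under 0.05 and 2 lower by SAM, beside 8.27% and 8.14%.

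In the remaining comparisons limma and SAM each called 0 of these 8. At an unadjusted p under 0.05, 1 was lower with the miR-410 inhibitor and 1 with the miR-655-3p inhibitor, and 0 with the others. All probes were 2.76% lower and 2.31% higher with the miR-369-3p mimic, 4.1% and 3.46% with the miR-410 mimic and 5.16% and 4.15% with the miR-410 inhibitor. They were 1.85% and 1.92% with the miR-544a inhibitor and 1.25% and 1.97% with the miR-655-3p inhibitor. As a description, the miR-544a mimic had 1 of these 8 past both thresholds (RB1, lower), beside 9.8% of all probes lower and 11.2% higher. CDK6 and RBL1 were selected on this contrast and are not counted. As a description, the median log2 fold change of the 10 members' probes was lowest with the miR-369-3p inhibitor (-0.52, beside 0.00 over all probes). It was -0.38 with the miR-135a inhibitor, -0.31 with the miR-135a mimic and -0.27 with the miR-410 mimic. With the miR-127-5p mimic it was -0.24 (0.01 over all probes), and with the miR-369-3p mimic 0.01. These medians include CDK6 and RBL1, which were selected in a contrast with the same NT arrays.

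All 10 probes could be tested without the NT arrays. Against the mean of the inhibitors 3 probes were lower (CCND1, RB1 and RBL1) and 3 higher (CDK6, CCND3 and CDKN1B ILMN_2196347) with the miR-127-5p mimic, where 9.08% of all probes were lower and 9% higher. The miR-135a mimic had 1 lower (RBL1; all probes 6.7% lower, 6.99% higher), the miR-369-3p mimic 1 higher (CDKN1B ILMN_1722811; all probes 1.75% lower, 1.68% higher), and the miR-655-3p mimic 1 lower (CCND1) and 2 higher (CCND3 and RB1), beside 5.91% and 6.01%. The miR-410 mimic had 0 called by limma, and 1 lower and 2 higher at an unadjusted p under 0.05, beside 3.14% lower and 2.43% higher of all probes. For the miR-544a mimic, as a description and leaving out CDK6 and RBL1, which were selected on its arrays, 1 was higher (CDKN1B ILMN_2196347), beside 10.2% and 10.3%.

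Against the inhibitor of the same microRNA, each mimic that was tested had 1 or 2 probes called. The miR-135a mimic had 1 lower (RBL1; all probes 7.44% lower, 7.71% higher), the miR-369-3p mimic 2 higher (RB1 and CDKN1B ILMN_1722811; all probes 4.23% lower, 4.29% higher), the miR-410 mimic 1 higher (CCND3; all probes 3.89% lower, 3.74% higher) and the miR-655-3p mimic 1 lower (CCND1; all probes 4.86% lower, 4.13% higher). As a description and leaving out CDK6 and RBL1, the miR-544a mimic had RB1 lower, beside 9.5% of all probes lower and 10.7% higher. Among the inhibitors, the miR-369-3p inhibitor stood below the mean of the other inhibitors for 3 probes: RB1 by 1.02 (limma adjusted p 0.049), RBL1 by 0.61 (adjusted p 0.035) and CDKN1B ILMN_1722811 by 0.57 (adjusted p 0.049), beside 1.7% of all probes lower and 1.02% higher. The other inhibitors had 0 called by limma, and 1 to 3 at an unadjusted p under 0.05. These calls were fragile: RB1 and CDKN1B were each lost without any of 6 of the 10 inhibitor arrays and RBL1 without any of 5, and all 3 with median scaling. Without replicate 2 of the miR-369-3p inhibitor, whose arrays had the largest median difference, the values were -0.26 for RB1 (adjusted p 0.79), -0.43 for RBL1 (adjusted p 0.6) and -0.30 for CDKN1B (adjusted p 0.72).

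**Figure D3:**
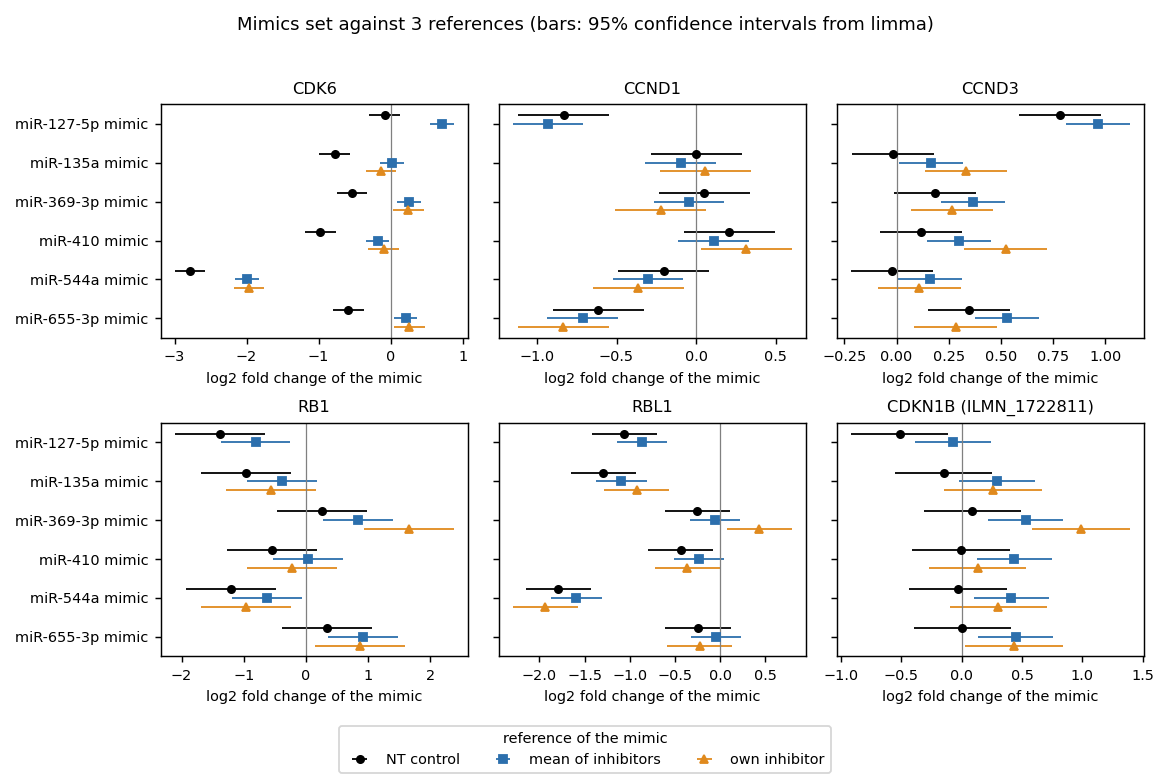
Log2 fold change of the 6 mimics (rows) for 6 probes, set against the NT control (black circles), the mean of the 5 inhibitor groups (blue squares) and the inhibitor of the same microRNA (orange triangles; none for miR-127-5p), with 95% confidence intervals. Intervals of CDK6 and RBL1 against the NT control, and all intervals of the miR-544a mimic, describe the spread among arrays and are not tests. For CDK6 the black points sit to the left of the other references in every row, by 0.79 from the mean of the inhibitors, while for CCND1 and RBL1 the references lie closer together.

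The mimics of miR-655-3p and miR-369-3p, which share the 13-base run printed above, differed at 1 of 10 probes, where 1.9% of all probes were lower and 2.69% higher with miR-369-3p. CCND1 was higher with the miR-369-3p mimic (7284 and 6476) than with the miR-655-3p mimic (4663 and 4017) by 0.67 on the log2 scale (SE 0.13, limma adjusted p 0.0061). This call was lost without replicate 1 of the miR-369-3p mimic (0.58, adjusted p 0.094) or replicate 2 of the miR-655-3p mimic (0.56, adjusted p 0.098). CDK6 differed by 0.05 (95% confidence interval -0.16 to 0.26) and RBL1 by -0.01 (-0.37 to 0.35). For RB1 the interval was -0.80 to 0.64, which leaves room for a change of 1.4-fold either way. These values come from 1 of 15 pairs of mimics, and p-values were adjusted over probes and not over pairs.

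Between the other mimics, CDK6 and RBL1 set different ones apart. CDK6 was higher with the miR-127-5p mimic than with the miR-410 mimic by 0.89 (limma adjusted p 7.1e-06) and the miR-135a mimic by 0.69 (adjusted p 6.7e-05), and both held with any of the 4 arrays left out. It exceeded the miR-655-3p mimic by 0.50 (adjusted p 0.0014), a call lost without replicate 1 of the miR-127-5p mimic (0.44, under the fold threshold) and with median scaling (adjusted p 0.17). RBL1 was instead low with both the miR-127-5p and the miR-135a mimic, which differed from each other by 0.23 (95% confidence interval -0.13 to 0.59).

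RBL1 was lower with the miR-135a mimic than with the mimics of miR-655-3p (-1.05, limma adjusted p 0.00027), miR-369-3p (-1.04, adjusted p 0.0005) and miR-410 (-0.86, adjusted p 0.0023; with median scaling -0.81, adjusted p 0.072). With the miR-127-5p mimic it was lower than with those of miR-655-3p (-0.82, adjusted p 0.002), miR-369-3p (-0.81, adjusted p 0.0027) and miR-410 (-0.63, adjusted p 0.014). Without replicate 2 of the miR-127-5p mimic the last pair of these were not called (-0.61, adjusted p 0.056, and -0.43, adjusted p 0.18), and the difference from miR-410 was also lost without replicate 1 of that mimic (adjusted p 0.086) and with median scaling (adjusted p 0.31).

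Other genes of the pathway were counted from lists of their known roles, 1 probe per gene, the brightest tested. These lists were chosen with earlier results of these data known. Over all 12529 genes tested, 9.4% were lower and 9.71% higher with the miR-127-5p mimic, 9.28% and 10% with the miR-135a mimic, 5.6% and 8.15% with the miR-369-3p inhibitor, and 10.7% and 14% with the miR-544a mimic. The shares were 7.39% and 6.68% with the miR-655-3p mimic, 4.63% and 4.14% with the miR-410 mimic and 2.95% and 2.86% with the miR-369-3p mimic.

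Among CDK inhibitors other than the members, 4 of 5 listed genes were tested; CDKN2A was detected on 0 arrays. With the miR-127-5p mimic 2 rose and 0 fell: CDKN1A, the p53 target p21, by 1.79 (limma adjusted p 1.4e-08) and CDKN2D, an INK4 inhibitor of CDK4 and CDK6, by 1.66 (adjusted p 4.3e-08). Both also rose against the mean of the inhibitors, by 1.21 and 1.26 (adjusted p 3e-08 and 2.5e-08).

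The NT control was low for CDKN1A and CDKN2D, with means of 1849 and 581 beside medians of 2424 and 871 over all arrays. It was not low for CDKN1C (73.8 beside 63.2) or CDKN2B (23.9 beside 24.1). At least 1 of the 4 genes was higher than the NT control in all 11 comparisons, which share the NT arrays. CDKN1A was lower in the NT control than in the mean of the inhibitors (-0.59, limma adjusted p 0.00023). With the miR-655-3p mimic CDKN1A rose by 0.82 and CDKN2D by 0.74 against the NT control, but against the mean of the inhibitors they were at 0.23 and 0.33 and not called. CDKN1C, a relative of p27, fell with this mimic against both references, by 1.23 (adjusted p 2.2e-05) and 0.86 (adjusted p 3.6e-05). With the miR-135a mimic CDKN2D rose by 0.95 against the NT control (adjusted p 1.8e-05) and by 0.54 against the inhibitors (adjusted p 0.00023). Values against the NT control with the miR-544a mimic were 1.65 for CDKN1A and -0.69 for CDKN2D.

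Of 14 tested cyclin and CDK partners, 1 fell and 3 rose with the miR-127-5p mimic. SKP2, the ubiquitin ligase subunit that marks p27 for degradation, fell by 1.403 (limma adjusted p 8.7e-07), and CCNE1, the cyclin that activates CDK2, rose by 0.55 (adjusted p 0.0041). MNAT1, an assembly factor of the CDK-activating kinase, was higher than in the NT control in all 11 comparisons, by 0.91 to 1.38. Its NT mean was 89.2 against a median of 189 over all arrays, so that, like CDK6, it has the NT control at an end of its range.

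Of the 9 E2F and DP factors other than E2F1, 3 fell and 2 rose with the miR-135a mimic. E2F8, an atypical repressor, was lowest (-1.15, limma adjusted p 0.0058), followed by the activator E2F2 (-1.03, adjusted p 4.8e-06). E2F5 (1.09, adjusted p 0.00035) and E2F7 (0.92, adjusted p 3.4e-05) were higher. With the miR-127-5p mimic 3 fell and 1 rose. E2F4, which pairs with RBL1 and RBL2 as a repressor, fell there by 0.74 (adjusted p 2.9e-05). Of the 6 MuvB genes, which join RBL1 or RBL2 in the DREAM repressor, 3 were lower with the miR-544a mimic than with the NT control (LIN9, LIN54 and RBBP4) and 1 was lower than the mean of the inhibitors (LIN9, at -1.59 and -1.45). Of all probes, 10.2% were lower with the miR-544a mimic than the mean of the inhibitors. In 8 of the other 10 comparisons with the NT control 1 gene of this list was lower, and RBBP4, a histone chaperone, had an NT mean of 660 beside a median of 445 over all arrays.

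E2F target genes, 23 of 25 listed ones tested, counted 9 lower and 1 higher with the miR-544a mimic, with a median log2 fold change of -0.38 beside 0.05 over all genes. MCM5 (-1.33), MCM4 (-1.24) and E2F2 (-1.19) were the lowest, the MCM genes encoding subunits of the replicative helicase. With the miR-135a mimic 6 fell and 2 rose (median -0.23), among them PCNA, the sliding clamp of DNA polymerases, by 0.94 (limma adjusted p 0.00026). With its inhibitor 5 fell and 1 rose (median -0.22), beside 6.97% and 6.58% of all genes. PCNA fell there by 1.04 (limma adjusted p 0.00018). The NT mean of PCNA was 1289 beside a median of 891 over all arrays, and both of these falls are measured from the same NT arrays.

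Against the mean of the inhibitors, 6 E2F targets were lower and 1 higher with the miR-544a mimic (all probes 10.2% lower, 10.3% higher). With the miR-135a mimic 5 were lower and 1 higher (all probes 6.7% lower, 6.99% higher).

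The other comparisons with the NT control had 8 or fewer E2F targets called. With the miR-127-5p mimic 3 fell and 5 rose (median -0.03), among them CDT1, a licensing factor, which rose by 0.80 (limma adjusted p 0.00075). With the mimics of miR-410, miR-655-3p and miR-369-3p 1 fell and 1 rose each. In the other inhibitor groups the calls lay in 1 direction: 3 lower with the miR-369-3p inhibitor (median 0.05), 3 higher with the miR-655-3p inhibitor (0.15), 2 higher with the miR-544a inhibitor (0.08) and 1 higher with the miR-410 inhibitor (-0.18). All genes were 1.57% lower and 2.52% higher with the miR-655-3p inhibitor, 2.42% and 2.35% with the miR-544a inhibitor and 6.58% and 4.59% with the miR-410 inhibitor. RRM2, a subunit of ribonucleotide reductase, was the 1 higher gene with those 3 mimics, and it met both thresholds in 10 comparisons, at 1.08 to 2.24, its NT mean being 156 beside a median of 537 over all arrays. Of the 25 listed targets, 7 also stand in other lists here (CCNE1, CCNE2, CCNA2, MYBL2, E2F2, E2F7 and E2F8).

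**Figure D4:**
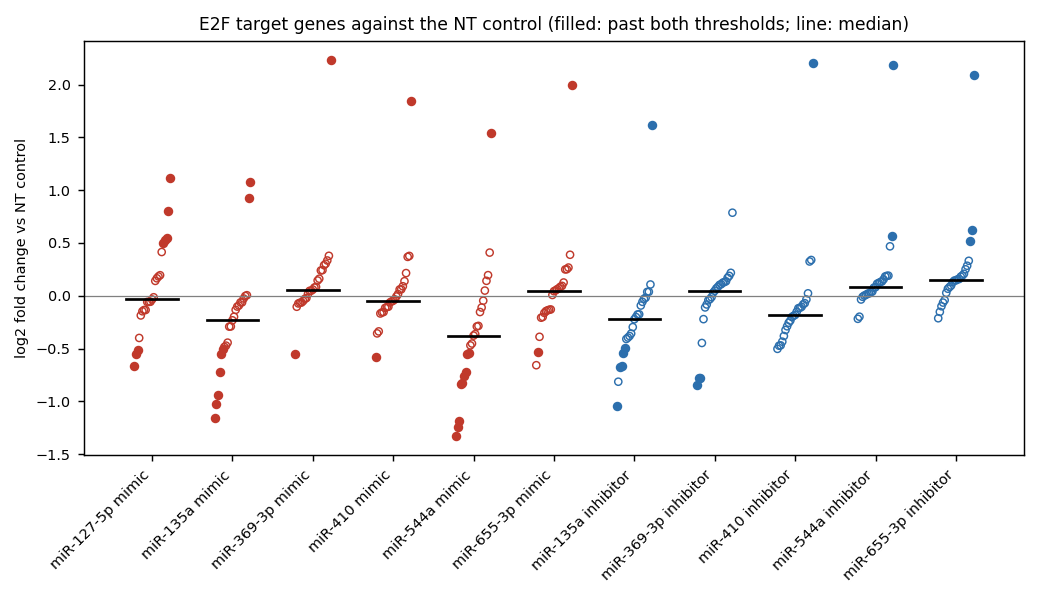
Log2 fold change against the NT control (vertical axis) of 23 E2F target genes in each of 11 groups; each point is a gene, filled where past both thresholds, and the line is the median. The line lies at -0.38 with the miR-544a mimic, -0.23 with the miR-135a mimic and -0.22 with the miR-135a inhibitor, and RRM2 reaches 2.24 with the miR-369-3p mimic.

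The probes whose 12 group means followed CDK6 most closely, among 16935 probes of other genes, were CERK (Pearson r 0.964), VPS33A (0.956), GTF2H1 (0.952), GCNT1 (0.951) and IARS2 (0.950). The 12 points share their normalization and rest on 2 arrays each. Without the miR-544a mimic the same probes gave 0.799, 0.771, 0.749, 0.711 and 0.731 over 11 groups, so that the likeness rests in part on that group. IARS2, the mitochondrial isoleucyl-tRNA synthetase, had a mean of 3269 in the NT control and 1031 with the miR-544a mimic.

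Promoter windows were searched for E2F-type motifs because RBL1 and E2F1 are known E2F targets. The motifs were TTTCCCGC, TTTCGCGC, TTTGCCGC and TTTGGCGC on both strands, in RefSeq windows (GRCh38.p14) from 250 bases before to 50 after each start. Of 35116 windows 3.31% held a match, and of 9 members with a window 2 did, RBL1 and E2F1, both on chromosome 20. The matches are shown in capitals, written 5' to 3' on the gene's strand, with the position of their first base from the start.
RBL1 at -26: cagctgcagatTTTCGCGCgctttggcgca
RBL1 at -16: ttttcgcgcgcTTTGGCGCaggtggttgtg
E2F1 at -33, motif on the other strand: gtggctctttcGCGGCAAAaaggatttggc
E2F1 at -20: ggcaaaaaggaTTTGGCGCgtaaaagtggc
RBL1 thus has 2 such matches and ranged 3.77-fold between groups, and E2F1 has 2 and ranged 1.37-fold. CDK6, CDK4, CCND3, RB1, RBL2 and CDKN1B hold none of these letters in their windows. A match is a description of the sequence and not a measured site.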

How the data were processed

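The authors deposited bead signal intensity values and detection p-values per probe, exported before background subtraction, and a table of log2 values, which BeadStudio had background-subtracted and quantile normalized. Here neqc (limma 3.58.1, R 4.3.3) corrected the intensities for a background inferred from detection p-values, with an offset of 16, then quantile normalized the arrays on the log2 scale. limma fitted 12 group means to 24 arrays (12 residual and 3.96 prior degrees of freedom), with Benjamini-Hochberg adjustment over the 22803 probes that the 2 arrays of some group detected. Calls needed both an adjusted p below 0.05 and 1.4-fold, the study's thresholds. The study used SAM.

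Groups came from the sample labels. The labels and the paper name different RNA extraction kits. Of 47309 probes, 30109 carry 1 symbol in the platform annotation, 8 several and 17192 none. The named genes are every detected member probe, at most 4 called probes per list and comparison, and the 5 probes most like CDK6. Members and lists were chosen with earlier results of these data known. Brightness differs between probes of different sequence, so levels are compared within a probe only, and the number of arrays limits the precision. The procedure was tested on simulated data. Alternatives were no background correction, plain subtraction, median scaling, an offset of 50, other filters, the authors' table, a replicate block, only the 4 arrays compared, SAM written anew, the inhibitor arrays as reference, and leaving out each array. Figures used matplotlib 3.10.9 under Python 3.11.15.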

Additional observations from a re-analysis of the deposited data

How the results depend on the processing

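Counts of called members here are over all 10 probes, CDK6 and RBL1 included, as a description. There were 1620 values of a member probe under an alternative, those with the inhibitor arrays as reference included. Of these, 1570 kept their call or stayed uncalled. With the sign unchanged, 31 calls were lost and 15 gained, and in 4 values a call was lost or gained with a change of sign. The sign of values that stayed uncalled was not compared, and it changed for some of them. The 4 values with a changed sign are CDK6 with the inhibitor arrays as reference. With the miR-127-5p mimic it was called at 0.71, having been uncalled against the NT control. It was no longer called at 0.014 with the miR-135a mimic, 0.25 with the miR-369-3p mimic and 0.21 with the miR-655-3p mimic. With that reference the count of called members was 1 with the miR-135a mimic and 0 with the miR-410 mimic.

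With median scaling the counts were 4 with the miR-135a mimic, 0 with the miR-369-3p mimic, 2 with the miR-369-3p inhibitor, 0 with the miR-655-3p mimic and 0 with the miR-655-3p inhibitor. This scaling moved the median of all probes to -0.19 with the miR-410 and miR-135a mimics and to -0.12 with the miR-544a inhibitor, and the calls over all probes to 2768 lower and 509 higher, 1361 and 114, and 202 and 75, from 1886 and 1857, 936 and 788, and 422 and 437. It gave 1436 and 745 with the miR-127-5p mimic, 1061 and 426 with the miR-135a inhibitor, 139 and 194 with the miR-369-3p mimic and 705 and 286 with the miR-410 inhibitor, from 1828 and 1767, 1361 and 1292, 630 and 527, and 1176 and 947. Against the shift of -0.19, CDK6 was at -1.04 with the miR-135a mimic and -1.23 with the miR-410 mimic.

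Without background correction the count was 1 with the miR-135a inhibitor, SAM gave 4 with the miR-135a mimic, and on the 4 arrays compared alone it was 0 with the miR-655-3p and miR-369-3p inhibitors. The cause of these changes was not tested. The last of these fits rests on fewer arrays. Leaving out 1 array at a time, which leaves a lone array assumed to vary like the other groups, gave 3 to 5 with the miR-127-5p mimic, 1 to 2 with the miR-135a inhibitor, 0 to 1 with the miR-369-3p mimic, 1 to 5 with the miR-369-3p inhibitor, 2 to 3 with the miR-544a mimic and 1 to 2 with the miR-655-3p mimic, and the main count in the other 5 groups. The 0 came without replicate 1 of the miR-369-3p mimic (CDK6 -0.51). Leaving out arrays and median scaling in comparisons without the NT control were chosen after seeing the data. No slides are named in the file headers, so no slide block was run.

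Replicate numbers gave no consistent pairing of the arrays. The deviations of same-numbered arrays correlated at -0.48 to 0.52 over 66 pairs of groups, above 0.1 in 27. Whether arrays of some groups share a batch was not tested. With a replicate block every count of called members was as without it (4 with the miR-127-5p mimic, 3 with the miR-544a mimic), and the crossed block, chosen after seeing the data, gave 1 for the inhibitors of miR-410 and miR-544a.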
